A study of Mus musculus with 7 samples.

Results

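The wild type group of a mouse lung study was described on its own, as a baseline of which genes a whole C57BL/6 lung expresses, at what level, and which of them differ between libraries of the same group. The members are the 4 wild type libraries of the 7 in the series, chosen by the genotype in their labels; the other 3 come from lungs in which Scgb3a2 was knocked out and were not used. Each member is a library of total RNA from lung tissue, extracted with Trizol and prepared by a standard Illumina protocol. The labels call these mice wild type and name no allele, treatment, age, sex or time of collection. Nor do they say that a library stands for 1 mouse, so the spread given below may be partly technical. The libraries are called WT2, WT3, WT4 and WT6 here, after the numbers in their titles.

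The alveoli of the lung are lined by flat type 1 cells, across which gas is exchanged, and by cuboidal type 2 cells, which make surfactant, a film of lipid and protein that keeps alveoli from collapsing. Beneath them lies a dense bed of capillary endothelium with fibroblasts and pericytes, and macrophages patrol the air spaces. The conducting airways carry secretory club cells, which make secretoglobins, and ciliated cells, which move mucus. A homogenate of whole lung mixes the RNA of all of these, and it can carry RNA of the blood, of the pleural lining, and of heart muscle and fat next to the lung. In such a mixture fewer cells of a type and less RNA per cell cannot be told apart.

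Library totals ranged from 13600557 to 16480006 counts. At that depth a count of 0 in a library allows a level of up to 0.180 to 0.220 CPM (the usual scaling of counts to the library size, here adjusted by TMM, a factor that sets the bulk of genes equal between libraries), taking 3 counts as the limit. Intervals of this kind cover counting error only. Values below are in CPM, means are given ± SD over the 4 libraries, and runs of 4 values are in the order WT2, WT3, WT4, WT6. On the first principal component of log2 CPM, which held 53.3% of the variance, WT6 stood at 27.5 and the other libraries between −15.4 and 0.54. The second component, with 29.2%, set WT2 at −21.6 apart from the others at 4.79 to 9.38. WT6 is therefore named, and values without it are given, where a result rests on it.

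Expression was spread over many genes. Between 17543 and 17913 genes reached 1 CPM in a library (17739 ± 177), and 16378 did so in all 4 libraries. Counts of the 1034 most abundant genes made up 50% of the total in WT2, and it took 960 genes in WT3, 960 in WT4 and 1118 in WT6 (1018 ± 75.2). The single most abundant gene held 2.10% ± 0.13 of a library, the first 10 held 9.22% ± 0.84, the first 100 held 21.5% ± 1.28, and the first 1000 held 49.7% ± 1.39. Means of at least 1000 CPM were reached by 62 genes, and means of at least 100 CPM by 2291.

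Malat1, a long non-coding RNA kept in the nucleus (GRCm38 chr19:5795690-5802672, minus strand), had the most counts, at 21468, 22631, 21921 and 18307 CPM in WT2, WT3, WT4 and WT6. Next came mt-Rnr2, the large ribosomal RNA of the mitochondrion, at 9922, 19964, 15503 and 13849 CPM. Its highest library, WT3, was 2.01 times its lowest, WT2. Scgb1a1, the secretoglobin of club cells (chr19:9083636-9087958, minus strand), followed with 12277, 14466, 13839 and 8366 CPM, and WT6 was lowest. Rn7sk, the 7SK RNA that holds back transcription elongation, stood at 11525, 12307, 11863 and 7778 CPM, again lowest in WT6. Sftpc, the surfactant protein C gene of type 2 cells (chr14:70520949-70524081, minus strand), came next at 7088, 8408, 8685 and 6824 CPM. WT6 was thus the lowest library for 4 of these 5 genes, mt-Rnr2 being the exception.

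Of the 20 genes with the most counts, 15 code for proteins. Long genes of the cell skeleton took a large part: Ahnak, a giant scaffold protein under the cell membrane, had 7643 ± 702 CPM, the spectrin gene Sptbn1 4549 ± 526 CPM, the microtubule and actin linker Macf1 4033 ± 752 CPM, and the focal adhesion gene Tns1 3032 ± 245 CPM. The remaining lung-typical genes among the 20 were Epas1, which encodes the hypoxia factor HIF-2α of endothelium, at 2997 ± 457 CPM, Sftpa1 (surfactant protein A) at 2975 ± 515 CPM, the lysozyme gene Lyz2 at 2696 ± 418 CPM, the carbonyl reductase Cbr2 at 2643 ± 143 CPM and the phosphate carrier Slc34a2 of type 2 cells at 2467 ± 214 CPM. Only mt-Rnr2 and the predicted RNA Gm26917 (5327, 2137, 3752 and 3455 CPM) had a highest library at least 2 times the lowest.

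**Figure D1:**
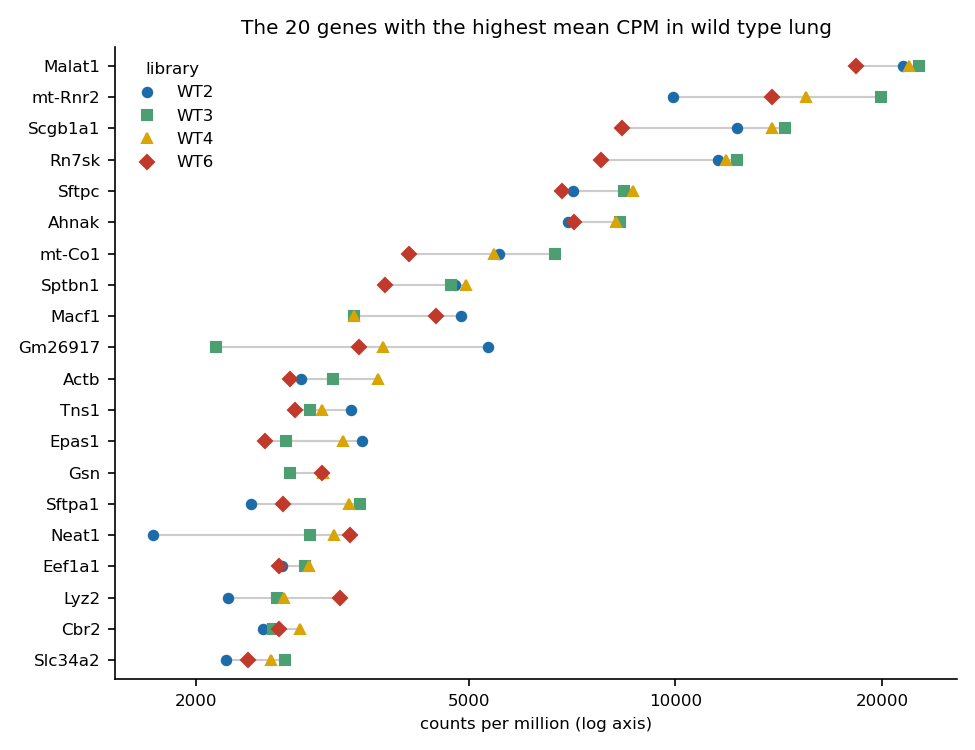
The 20 genes with the highest mean CPM in wild type lung, 1 row per gene with the mean falling from top to bottom. Each symbol is 1 library, on a log axis of CPM. Malat1 lies between 18307 and 22631 CPM, while mt-Rnr2 and Gm26917 have the widest spread, from 9922 to 19964 and from 2137 to 5327 CPM.

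CPM grows with the length of a transcript, so levels of different genes were compared per length, as TPM (transcript levels scaled to a common total) computed here from the counts and the merged exon length of each gene. On that scale 11 of the 20 genes with the most counts stayed among the first 20, and the long genes left: Ahnak, with 19938 bases of exon, had 1231 ± 56.6 TPM. Rn7sk, with 331 bases, had 105092 ± 16244 TPM and was first. Scgb1a1 was second with 82120.2 ± 14775 TPM and Sftpc 3 places lower with 24044 ± 1565 TPM, followed by mt-Co1 (11271 ± 1780.5) and Malat1 (9699 ± 500.0). Lyz2 (6623 ± 1282 TPM) and Cbr2 (6415 ± 363 TPM) were next to each other in that order, and the difference between them was within their spread. Hbb-bs, a beta globin of red blood cells, reached 3737 ± 328 TPM, B2m, the light chain of MHC class I, 3731 ± 1084 TPM, and Actb 3725 ± 327 TPM, again within their spread of each other. Gm23935, a microRNA gene model of 57 bases, came between Scgb1a1 and Sftpc, at 31697 ± 21903 TPM. Reads longer than such a model cannot come from it alone, and its TPM is not a level of a mature microRNA.

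Protein-coding genes held 91.4% ± 0.365 of counts. Long intergenic RNAs held 3.01% ± 0.109, most of it Malat1, Gm26917 and Neat1, the RNA that scaffolds paraspeckles (1733, 2930.4, 3179 and 3357 CPM, lowest in WT2). Genes of the mitochondrial genome held 2.71% ± 0.606, of which the ribosomal RNAs were 1.71% ± 0.454. The share of these ribosomal RNAs was 1.16, 2.27, 1.75 and 1.65 percent in WT2, WT3, WT4 and WT6, while that of mitochondrial protein genes was 1.04, 1.29, 0.963 and 0.705 percent. Both were highest in WT3, but the lowest library was WT2 for the first and WT6 for the second. Of 11 mitochondrial genes with a mean of at least 5 CPM, 8 had a highest library at least 2 times the lowest; among them mt-Nd1, a subunit of complex I, had 1151, 1761, 1303 and 707 CPM and mt-Cytb, of complex III, 1263, 1761, 1219.9 and 724 CPM. Cytosolic ribosomal protein genes held 1.25% ± 0.0437 and nuclear genes of the respiratory chain 0.333% ± 0.0263. Among gene families typical of the tissue, surfactant proteins held 1.39% ± 0.133, secretoglobins 1.25% ± 0.232, collagens 0.800% ± 0.0708, and 10 spectrins and giant linker proteins together 2.69% ± 0.0828. The last share was larger than that of the 4 surfactant genes, and it is a share of reads, in which long genes weigh more.

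The label of the tissue was checked against its defining markers. Sftpc, Sftpb, Sftpa1 and Sftpd of type 2 cells were at 24044, 4020.5, 3332 and 955 TPM, and Ager, Hopx, Aqp5 and Pdpn of type 1 cells at 2206, 321, 162 and 195 TPM. All were present in each library. The type 2 list of 16 genes had the highest median of the cell type lists, 473 ± 28.7 TPM, and held 2.01% ± 0.149 of counts. General endothelium followed with a median of 341 ± 31.5 TPM over 21 genes, and type 1 cells with 306 ± 18.2 TPM over 17 genes. These medians depend on which genes are on a list, and they are no measure of cell numbers.

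**Figure D2:**
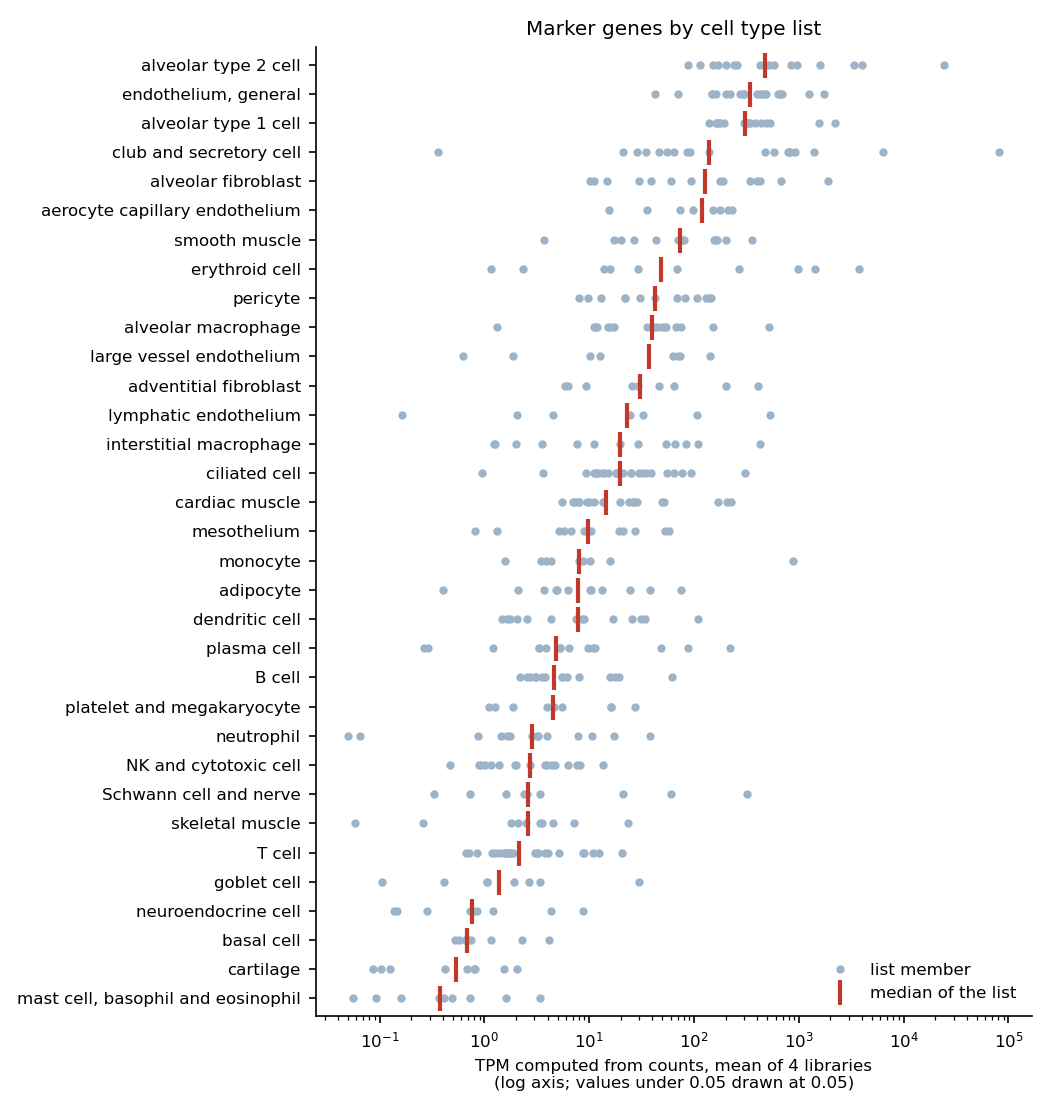
Marker genes of 33 cell type lists, 1 row per list, ordered by the median. Points are list members at their mean TPM over the 4 libraries, on a log axis, and the bar is the median of the list. Alveolar and endothelial lists lie at the top, with medians of 306 to 473 TPM, and the 4 lists at the bottom, from neuroendocrine to mast cells, lie under 1 TPM.

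Among type 2 genes, surfactant protein genes led, followed by Slc34a2 (1582 ± 91.3 TPM), the chemokine gene Cxcl15 (846 ± 220.2 TPM) and the lysosomal membrane gene Lamp3 (523 ± 37.2 TPM). Abca3, the pump that loads lipid into lamellar bodies, had 153 ± 30.3 TPM. The widest spread in this list belonged to the protease gene Ctsh, at 271, 466, 476 and 251 CPM. WT3 and WT4 were its 2 highest libraries, as they were for 21.9% of all tested genes. For type 1 cells the receptor gene Ager led with 2206 ± 221 TPM, ahead of the lipid-binding Sec14l3 (1556 ± 62.8 TPM) and the chloride channel gene Clic5 (533 ± 19.0 TPM). The keratin gene Krt7 had 259, 339.5, 394 and 239 CPM, the widest spread of that list. WT6 was the lowest library for 12 of the 17 type 1 genes, against 28.9% of all genes with a mean of at least 1 CPM.

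In the airway lists the secretory genes were dominated by Scgb1a1. Cyp2f2, the club cell cytochrome P450, had 1397 ± 211 TPM. Scgb3a2, the secretoglobin targeted in the other group of the study, had 252, 264, 193 and 292 CPM here (922 ± 195 TPM), highest in WT6 and lowest in WT4. Scgb3a1, its relative in the trachea and large bronchi, had 579 ± 113 TPM. Markers of ciliated cells were lower, with a list median of 19.6 ± 1.76 TPM. The microtubule gene Tppp3 was at 305 ± 49.6 TPM and Foxj1, the master regulator of motile cilia, at 76.6 ± 14.4 TPM. The goblet cell list had a median of 1.37 ± 0.347 TPM, and its highest gene, the trefoil factor Tff2, was at 29.8 ± 11.8 TPM. Basal cell markers had few counts. Krt15, the highest of the list per length, had 31, 5, 18 and 74 counts, highest in WT6. Krt5 had 1, 5, 7 and 13 counts, and Trp63, the basal cell transcription factor, 20, 24, 23 and 22 counts. For neuroendocrine cells Calca, which encodes the peptide CGRP, had 0.540, 3.55, 3.30 and 1.76 CPM.

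In the endothelial lists Epas1 led the general markers with 1725 ± 258 TPM, ahead of the adrenomedullin receptor gene Calcrl (1250.1 ± 313 TPM) and the cadherin gene Cdh5 (695 ± 81.4 TPM). Aerocytes, the capillary cells that face the air space, are marked by Car4, a carbonic anhydrase, and Ednrb, the endothelin receptor B; Car4 had 211 ± 37.4 TPM and Ednrb 98.4 ± 17.6 TPM. Vwf of larger vessels was at 141 ± 35.4 TPM and Lyve1 of lymphatic vessels at 534 ± 97.2 TPM, while Prox1, which defines lymphatic identity, was at 2.04 ± 0.229 TPM. Sox18, an endothelial transcription factor, was the only one of 21 general endothelial genes with a highest library at least 2 times the lowest, with 51.1, 24.5, 32.2 and 33.0 CPM; without WT3 it was not variable.

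In the mesenchyme Inmt, an amine methyltransferase of alveolar fibroblasts, had 1915 ± 527 TPM and 1284, 906, 736 and 862 CPM, highest in WT2. Pdgfra, the receptor that marks alveolar fibroblasts, had 189 ± 21.7 TPM, and Pdgfrb of pericytes 138 ± 21.6 TPM. Acta2, the smooth muscle actin, was at 359 ± 34.4 TPM and Myh11, its myosin partner, at 163 ± 15.5 TPM. Of 23 matrix genes, Mgp, an inhibitor of calcification, led with 1554 ± 109 TPM, followed by Sparc (1025 ± 152 TPM) and the basement membrane collagens Col4a1 (767 ± 132 TPM) and Col4a2 (669 ± 126 TPM), ahead of the fibrillar Col3a1 (275 ± 43.1 TPM) and Col1a1 (101 ± 16.4 TPM). WT4 was the highest library for 17 of the 23, against 22.1% of all genes at 1 CPM. Eln, which encodes the elastin of alveolar walls, had 157, 350.2, 448 and 198 CPM, high in WT3 and WT4 and low in WT2 and WT6, and its highest library was 2.85 times its lowest.

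Among leukocytes, alveolar macrophage markers were the highest. Chil3, a chitinase-like protein of these cells, had 523 ± 109 TPM and the scavenger receptor Marco 15.9 ± 3.33 TPM; the 17 genes of the list had a median of 39.5 ± 1.13 TPM. Interstitial macrophage genes had a median of 19.8 ± 4.63 TPM, with the complement gene C1qa at 84.4 ± 1.40 TPM. The monocyte list was led by Ace at 889 ± 139 TPM, but Ace, angiotensin-converting enzyme, is also a product of lung endothelium, and the monocyte chemokine receptor Ccr2 was at 10.2 ± 1.95 TPM. Likewise Scn7a, the highest of the nerve list at 321 ± 22.8 TPM, is also made by lung fibroblasts. Lymphocyte lists lay low, with medians of 4.66 ± 1.80 TPM for B cells, 2.14 ± 0.475 TPM for T cells and 2.71 ± 1.40 TPM for natural killer cells. Neutrophil genes were low too: S100a8 had 2.52, 2.34, 1.54 and 2.74 CPM.

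Some markers of neighbouring organs had few counts. Alb, the albumin gene of liver, had 4, 5, 26 and 13 counts, Dntt of thymus had 0, 0, 1 and 1, and Krt13 of the oesophageal lining had 3, 2, 2 and 2. The highest genes of the thymus, oesophagus and thyroid lists were less scarce. Cd1d1 had 8.57, 4.62, 5.28 and 9.55 CPM, Spink5 5.04, 7.41, 8.57 and 7.79 CPM and Tg 3.24, 3.42, 2.56 and 4.70 CPM. Whether these reads came from those organs was not tested. Heart muscle markers reached higher levels. Myh6, the alpha myosin heavy chain of heart, had 382, 184, 365 and 460.3 CPM, and Myl7, the atrial light chain, 34.8, 18.2, 33.8 and 62.1 CPM, which in TPM came to 169 ± 63.2 and 207 ± 113. The heart muscle list held 0.155% ± 0.0555 of counts, in which long genes such as Ttn weigh most. Per length, the median of the list was 14.6 ± 8.03 TPM, against 19.6 ± 1.76 TPM for ciliated cells. Muscle of the heart also continues along the pulmonary veins of mice, and the source of these reads was not tested.

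Transcription factors of lung identity were lower than the genes above. Nkx2-1, the regulator of lung epithelium, was at 87.6, 87.4, 90.7 and 62.3 CPM (92.4 ± 11.6 TPM) and Foxf1, the regulator of lung mesenchyme and capillaries, at 152, 93.1, 87.9 and 179.9 CPM (174 ± 70.7 TPM). The first was lowest in WT6 and the second highest there. WT6 was the lowest library for 17 of 22 such factors with a mean of at least 1 CPM, against 28.9% of all genes at 1 CPM. Foxa1, Foxa2, Tbx4, Tbx5, Irx1 and Irx2 were among the 17. Division genes were low, with a list median of 3.58 ± 0.326 TPM and Mki67 at 46.8, 43.1, 34.5 and 37.3 CPM.

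Sex-linked genes were alike in the 4 libraries. Ddx3y had 106, 132, 117 and 131 CPM, Uty 64.6, 85.2, 68.7 and 71.8 CPM and Kdm5d 57.1, 67.0, 60.8 and 53.1 CPM, all from the Y chromosome, and Xist, the RNA that silences an X chromosome in females, had 6.24, 5.57, 7.62 and 7.02 CPM. Each library thus carried Y transcripts. Eif2s3y alone of this list had a highest library at least 2 times the lowest, with 43.3, 30.2, 50.9 and 63.0 CPM, and without WT3 or without WT6 it did not.

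The spread between libraries was small for most genes. The common biological coefficient of variation, the spread beyond counting error that edgeR estimates over 17603 genes, was 0.162. It was 0.136 without WT6 and 0.168 to 0.172 without one of the others. A gene was called variable where its highest library was at least 2 times its lowest, among 12664 genes with a mean of at least 5 CPM. There were 618 variable genes (4.88%), and 266 when WT6 was left out (2.12%, where 3 libraries also give a smaller range by construction). This is a description of 4 libraries, with no test. Loxl2, just inside the threshold, had a highest library 2.002 times its lowest, and Bmp4, just outside, 1.999 times.

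Variable genes were more frequent at low levels, with 11.6% of genes between 5 and 10 CPM and 2.06% of those between 50 and 100 CPM, and frequent again above 1000 CPM (6 of 62 genes, 9.68%); 4 of these 6 genes are mitochondrial. The median exon length of variable genes was 3090.5 bases, against 4599 over all tested genes. WT6 was the highest library for 222 of them and the lowest for 198. It stood at least 2-fold above every other library for 39 genes, WT2 for 4, WT4 for 3 and WT3 for none. The 2 highest libraries were WT2 and WT6 for 37.1% of variable genes (19.0% of all tested) and WT3 and WT4 for 27.8% (21.9%). Base composition moved with the libraries to a smaller extent. In the 25% of genes with the lowest GC content the median log2 deviation of WT3 from the gene's mean was 0.092, and in the highest 25% −0.101. For WT2 the values were −0.045 and 0.060, for WT4 −0.058 and 0.076, and for WT6 0.030 and −0.028.

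**Figure D3:**
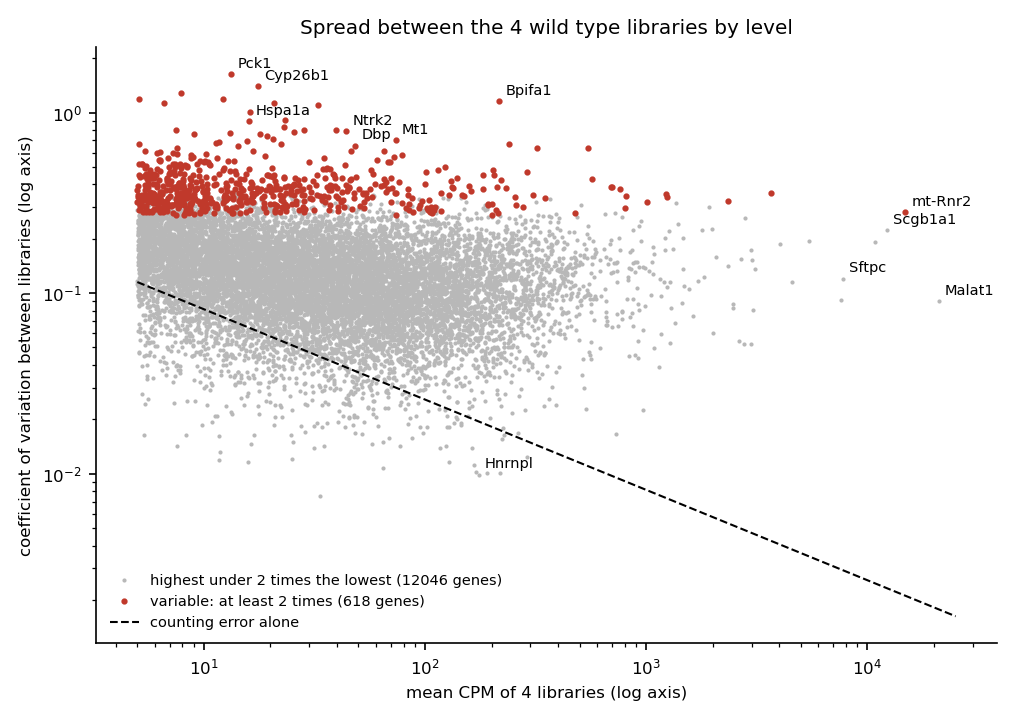
Coefficient of variation (SD over mean of CPM) of each gene over the 4 libraries against its mean CPM, both on log axes. Red points are the 618 variable genes, grey points the other tested genes, and the dashed line is the spread that counting alone would give at the mean library total. Pck1 and Cyp26b1 have the largest values of the genes labelled, 1.63 and 1.41, and Hnrnpl one of the smallest, 0.0099.

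The steadiest genes with a mean of at least 50 CPM had coefficients of variation of 0.0099 to 0.0139, no larger than counting error gives. Hnrnpl, a splicing factor, had 174, 176, 177 and 174 CPM, and Dicer1, the nuclease that cuts microRNA precursors, 168, 172, 169 and 168 CPM. Pink1, a mitochondrial quality control kinase, had 127, 128, 131 and 129 CPM, and Hspa4, a chaperone of the HSP110 family, 165, 159.6, 162 and 164 CPM. None of 15 reference genes was variable, but their coefficients of variation reached 0.211 for Pgk1 (36.8, 47.6, 53.8 and 61.8 CPM, lowest in WT2 and highest in WT6), and that of Gapdh was 0.160.

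Variable genes were unevenly spread over the gene lists. Over the lists, 87 of 464 tested members were variable (18.8%), against 4.35% of the 12200 tested genes on no list. Since the lists were drawn up with earlier results of these libraries known, this comparison is not independent evidence. In 9 of the 34 lists with at least 5 tested members no gene was variable: type 1 and type 2 cells, both kinds of macrophages, pericytes, lymphatic endothelium, adventitial fibroblasts, division genes and reference genes. These lists had 6 to 17 tested members, and at the share of all tested genes lists so short would often hold none. In 20 of the 34 the percentage lay above the 4.88% of all tested genes, and in 8 lists at least 25% of the members were variable.

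**Figure D4:**
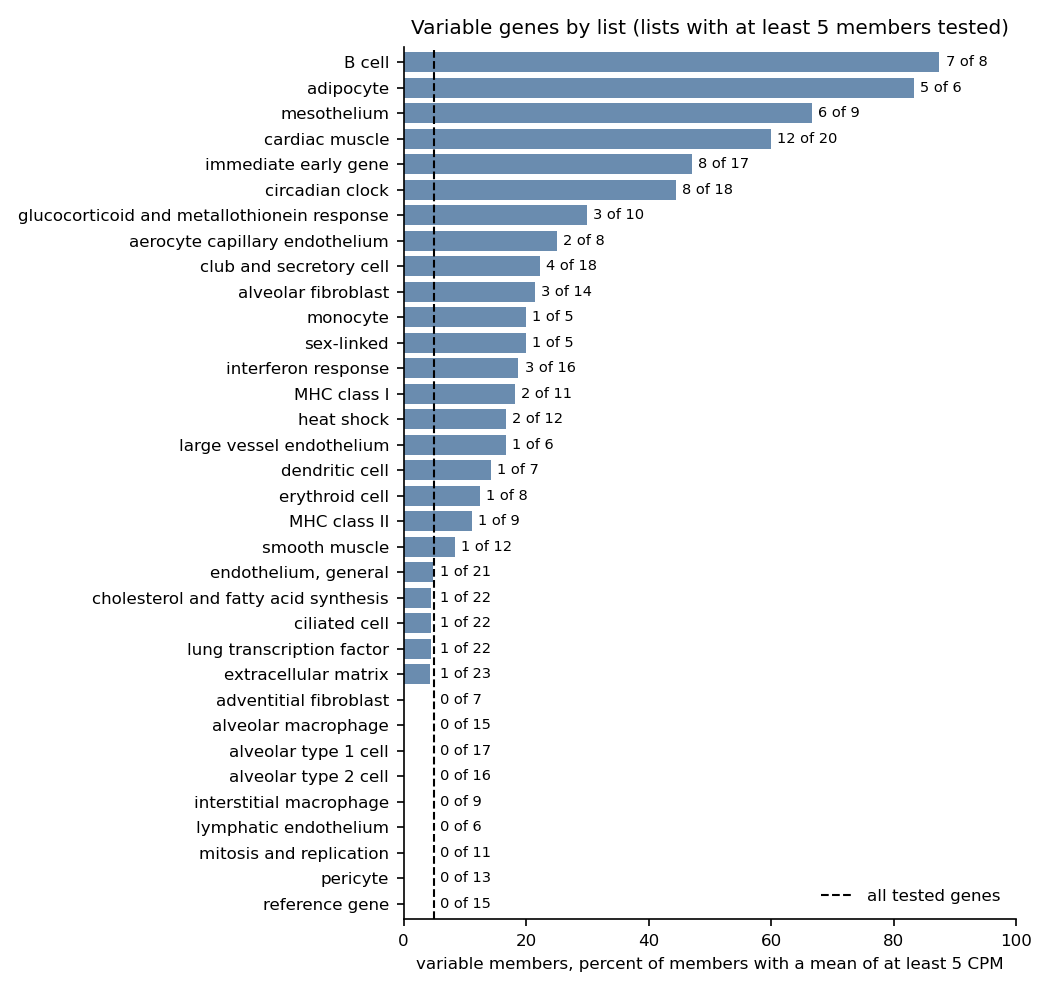
Percent of variable genes among the members of each list that had a mean of at least 5 CPM, for the 34 lists with at least 5 such members. The number beside each bar is the count of variable over tested members, and the dashed line is the 4.88% of all tested genes. B cell, adipocyte, mesothelium and heart muscle lists have the longest bars, and 9 lists have none.

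Fat cell genes were high in WT6. Of 6 adipocyte genes with a mean of at least 5 CPM, 5 were variable. Of 10 with at least 1 CPM, 9 were highest there, against 31.5% of all genes at 1 CPM. Pck1, Thrsp and Plin1 reached a mean of 5 CPM, and Ucp1 and Cidea 1 CPM, only through WT6. For these genes a high WT6 was implied by passing the filter. Pck1, the enzyme that makes glycerol backbone and glucose from oxaloacetate (chr2:173153048-173159273, plus strand), had 2.76, 2.09, 2.49 and 45.8 CPM and the largest coefficient of variation of any variable gene, 1.63. Cfd, the serine protease adipsin of fat, had 8.93, 5.95, 12.7 and 55.8 CPM, Car3, a carbonic anhydrase of fat and muscle, 15.9, 11.8, 16.5 and 87.3 CPM, and Plin1, the coat protein of fat droplets, 3.06, 1.39, 1.83 and 14.0 CPM. In each, WT6 lay far above the other 3 libraries. Thrsp, which promotes fatty acid synthesis, had 3.24, 2.79, 2.56 and 17.8 CPM. Adipoq, the fat hormone adiponectin, had 1.20, 0.380, 2.05 and 13.5 CPM. Ucp1, the uncoupling protein of brown fat, had 132 counts in WT6 (9.27 CPM) and 0 in each of the others, which allows up to 0.180 to 0.220 CPM there. Outside the list, the fatty acid carrier Fabp4 had 10.6, 12.5, 17.4 and 51.3 CPM, the triglyceride synthase Dgat2 14.3, 10.1, 9.38 and 38.1 CPM and the elongase Elovl6 7.08, 8.24, 7.62 and 18.6 CPM, with WT6 highest in all. Without WT6, 1 of 3 tested adipocyte genes was variable. The list's share of counts was 0.0292% in WT6 and 0.00415% to 0.00557% in the others.

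Mesothelium, the sheet that covers the lung's surface, showed the same library as highest. Of 9 tested genes 6 were variable, all highest in WT6, and without WT6 none of 7 was. Some members, Lrrn4 among them, reached a mean of 5 CPM only through WT6, so their high WT6 was implied by passing the filter. Msln, the surface protein mesothelin, had 12.2, 19.3, 15.8 and 55.3 CPM, Upk3b, a uroplakin of this lining, 11.9, 15.7, 12.2 and 42.3 CPM, Lrrn4 6.00, 4.43, 3.22 and 16.2 CPM, and the mucin Muc16 32.1, 37.8, 27.3 and 88.2 CPM. Upk1b, by contrast, had 33.4, 43.7, 38.3 and 35.2 CPM and was highest in WT3. The source of the fat and mesothelial RNA in WT6 was not tested.

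Heart muscle genes were variable in 12 of 20 cases, and their order differed from that of fat. WT3 was the lowest library for 18 of 21 genes, against 24.0% of all genes at 1 CPM. WT6 was the highest for 15 of 21, against 31.5%. Ttn, the giant spring of the sarcomere, had 725, 391.99, 629 and 1039 CPM, and Mybpc3, a regulator of cardiac myosin, 6.78, 3.55, 6.67 and 19.2 CPM. Sln, an atrial inhibitor of the calcium pump, had 4.20, 2.34, 4.98 and 10.04 CPM, and Myl4, the atrial essential light chain, 34.4, 20.1, 38.0 and 56.1 CPM. Actc1, the cardiac actin, had 84.3, 100.2, 117 and 146 CPM and was not variable by the rule. Without WT3, 3 of 20 genes were variable, and without WT6 3 of 17, as some, Sln among them, reached a mean of 5 CPM only through WT6.

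Lymphocyte genes were low in WT4. Of 8 tested B cell genes 7 were variable, and WT4 was the lowest library for 14 of 15 with at least 1 CPM. Ighm, the heavy chain of IgM, had 36.8, 33.5, 16.5 and 53.9 CPM, and Pax5, the factor that fixes B cell fate, 7.98, 6.14, 2.05 and 7.58 CPM. WT6 was highest for Ighm and WT2 for Pax5. Leaving out WT4 left 2 of 9 variable. The same library was lowest for 16 of 22 T cell genes and 10 of 12 natural killer genes, against 24.6% of all genes at 1 CPM. An example is Il2rb, a chain of the interleukin 2 receptor, at 5.94, 5.32, 3.81 and 9.55 CPM. Platelet genes had WT6 highest in 7 of 7, against 31.5% of all genes at 1 CPM. Ppbp, a platelet chemokine, had 9.59, 8.43, 5.35 and 12.7 CPM. In plasma cells Igha, the heavy chain of IgA, was steady at 38.0, 39.5, 40.2 and 43.4 CPM, and Jchain, which joins IgA units, had 8.22, 8.68, 5.64 and 12.2 CPM. Of the 4 tested plasma cell genes 2 were highest in WT6 and 1 was lowest there.

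Interferon and antigen presentation genes followed a related order, with WT2 and WT6 as the 2 highest libraries in 16 of 21 interferon genes and 10 of 11 MHC class I genes, against 21.4% of all genes at 1 CPM. Nlrc5, the activator of MHC class I genes, had 60.2, 33.4, 25.2 and 63.8 CPM. WT2 and WT6 were its 2 highest libraries too. B2m went the other way, with 1097, 1327, 1042 and 559 CPM, lowest in WT6. By the 2-fold rule 3 of 16 interferon genes (18.75%) and 2 of 11 MHC class I genes (18.2%) were variable. Of 9 MHC class II genes 1 was (11.1%), H2-Ob of B cells (8.75, 7.54, 3.52 and 13.6 CPM). The share over all tested genes was 4.88%. Without WT6, 1 interferon gene was variable. The MHC class I count was 1 without WT3, WT4 or WT6, and the MHC class II count was 0 without WT4.

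The circadian clock list had 8 variable genes of 18. The clock is a loop in which the activators Bmal1 (gene Arntl) and Clock drive their own repressors, the Per and Cry genes, and the receptor Nr1d1 acts on Arntl in turn; its RNAs rise and fall over the day. Dbp, an output factor of this loop, had 83.7, 25.7, 17.7 and 66.0 CPM, Nr1d1, which represses Arntl, 127, 40.6, 38.1 and 109 CPM, and Ciart, a repressor of the activators, 42.0, 18.6, 21.5 and 37.1 CPM. All were high in WT2 and WT6 and low in WT3 and WT4. Arntl itself had 4.86, 7.92, 10.4 and 5.05 CPM and Cry1 18.0, 37.1, 34.7 and 23.4 CPM, and both were high in WT3 and WT4 and low in WT2 and WT6. Nfil3, a repressor at the sites that Dbp activates, had 2.998, 4.12, 9.23 and 4.70 CPM. Other members moved little: Per2 had 214, 214, 237 and 187 CPM, Clock 139.9, 181, 179 and 147 CPM, and Tef, a relative of Dbp, 573, 568, 527 and 581 CPM. Of 19 members with at least 1 CPM, WT2 and WT6 were the 2 highest libraries for 9 and WT3 and WT4 for 4, and the others had another pair. Over all genes at 1 CPM these 2 pairs were highest for 21.4% and 18.9%. The labels give no time of collection. Without WT2, 4 of 18 genes were variable, and without WT4 5 of 17.

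The E-box, the sequence CACGTG (the same on both strands) that Bmal1 and Clock bind, was searched in RefSeq promoter windows of GRCm38.p6. Only the 250 bases before each start were searched. It was found in 5 of the 15 tested clock genes with a window (33.3%), against 6.86% of all 27025 genes with one and 9.94% of the tested genes. Of the clock genes that were variable, Ciart and Cry1 held it, and they lay on opposite sides of the library order. Shown are the 250 bases before the start of each, 5′ to 3′ on the minus strand, with the E-box in capitals; Ciart is at chr3:95882229-95882478 and Cry1 at chr10:85185055-85185304.
Ciart: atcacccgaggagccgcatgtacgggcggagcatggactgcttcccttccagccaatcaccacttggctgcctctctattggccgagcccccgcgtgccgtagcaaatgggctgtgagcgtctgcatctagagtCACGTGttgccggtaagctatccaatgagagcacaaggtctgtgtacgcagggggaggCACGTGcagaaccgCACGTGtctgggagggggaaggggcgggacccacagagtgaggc
Cry1: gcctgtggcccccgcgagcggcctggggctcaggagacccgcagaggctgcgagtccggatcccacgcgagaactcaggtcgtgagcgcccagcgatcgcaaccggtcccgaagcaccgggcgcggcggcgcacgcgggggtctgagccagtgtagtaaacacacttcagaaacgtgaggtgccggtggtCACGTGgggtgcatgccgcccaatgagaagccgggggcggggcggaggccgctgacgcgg
Ciart held the motif 3 times, 116, 58 and 44 bases before the start, and Cry1 once, 60 bases before. A match of these letters is a description of the sequence and not of binding. The 250 bases before the starts of Dbp and Nr1d1 did not hold these letters.

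Immediate early genes, which cells switch on within minutes of a stimulus, were high in WT2 and WT4. These were the 2 highest libraries for 11 of 18 members, against 16.3% of all genes at 1 CPM, and 8 of 17 tested members were variable. Fos had 64.3, 30.0, 68.4 and 38.1 CPM, Egr1 25.5, 14.1, 36.1 and 16.1 CPM, Junb 75.2, 43.7, 92.0 and 41.0 CPM and Fosb 14.0, 4.69, 10.2 and 7.02 CPM. Dusp1, the phosphatase that ends MAP kinase signals, had 265, 157, 328 and 128 CPM, and Zfp36, which speeds the decay of cytokine RNAs, 181, 118, 196 and 64.9 CPM. For all 6 genes both WT2 and WT4 lay above both WT3 and WT6. Klf4 differed, with 112, 61.6, 81.5 and 126 CPM. Without WT3, 4 of 17 were variable.

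Heat shock genes had the same 2 libraries highest in 7 of 12 cases, against 16.3% of all genes at 1 CPM. The 2 variable ones were Hspa1a and Hspa1b, the inducible chaperones of the HSP70 family. Hspa1a (chr17:34969190-34972156, minus strand) had 16.2, 5.76, 36.1 and 5.90 CPM, and Hspa1b (chr17:34956436-34959238, minus strand) 29.6, 8.55, 59.7 and 15.2 CPM. In both WT4 was the highest and WT2 the second. The constitutive Hspa8 had 1087, 772, 1128 and 809 CPM and the mitochondrial Hspd1 77.7, 72.5, 69.99 and 76.0 CPM. Hspa1a and Hspa1b are near-identical copies with starts 12.9 kb apart, so reads may have been split or shared between them, and their likeness to each other is not evidence from 2 genes. The heat shock element was searched as GAANNTTC (the same on both strands), where N is any base. It was found in the 250 bases before the start for 6 of the 9 heat shock genes that had a window (66.7%). This compares with 7.73% of all genes with a window and 5.92% of the tested genes. The 250 bases before each start show how alike the copies are. They are given 5′ to 3′ on the minus strand, at chr17:34972157-34972406 for Hspa1a and chr17:34959239-34959488 for Hspa1b, with the match in capitals.
Hspa1a: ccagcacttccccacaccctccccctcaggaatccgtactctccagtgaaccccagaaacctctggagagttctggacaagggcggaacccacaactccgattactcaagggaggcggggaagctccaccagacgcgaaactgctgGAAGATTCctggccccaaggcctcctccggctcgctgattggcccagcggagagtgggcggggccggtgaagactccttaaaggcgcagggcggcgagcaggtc
Hspa1b: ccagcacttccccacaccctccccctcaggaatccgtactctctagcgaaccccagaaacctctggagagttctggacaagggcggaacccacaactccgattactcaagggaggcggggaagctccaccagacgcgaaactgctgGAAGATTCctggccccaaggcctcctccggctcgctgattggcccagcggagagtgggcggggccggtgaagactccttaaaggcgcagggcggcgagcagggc
The match lay 104 bases before the start in both, and 247 of the 250 bases were identical.

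Metallothionein and glucocorticoid response genes had 3 variable members of 10. Mt1, the metal-binding protein that rises with metals and stress hormones, had 37.4, 76.2, 146 and 35.5 CPM, high in WT4, then in WT3. Pdk4, the kinase that turns cells from glucose to fat as fuel, had 22.1, 57.4, 56.1 and 55.1 CPM, with WT2 low and the other libraries close together. Cdkn1a, the cell cycle inhibitor p21, had 25.9, 43.2, 68.01 and 43.4 CPM. Tsc22d3, Fkbp5 and Klf9, which glucocorticoids induce, did not move as 1 group: they had 569.6, 529.7, 623 and 606, 114, 172, 179.9 and 223 and 337, 351, 324 and 316 CPM. Without WT2, 1 of 10 was variable. Among inflammatory genes Lcn2, an iron-trapping protein of airway lining and neutrophils, had 80.4, 135, 183 and 60.0 CPM in the order of Mt1, with WT4 and WT3 high, whereas Il1b had 4.32, 1.90, 2.93 and 2.39 CPM and Tnf 1.38, 1.20, 0.953 and 0.983 CPM.

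Secretory genes of the airway held 4 variable genes of 18, and none without WT6. Bpifa1, a secreted antimicrobial protein of large airways and nose (chr2:154142880-154149219, plus strand), had 102, 81.6, 89.8 and 594 CPM, and WT6 was 5.80 times the next library. Reg3g, a bactericidal lectin, had 13.9, 12.1, 19.0 and 44.2 CPM, and the neutrophil list's Ltf, lactoferrin, which airway glands also secrete, 18.8, 18.6, 34.8 and 85.6 CPM, again highest in WT6. The neutrophil genes S100a8 and S100a9 were also highest in WT6, but at a few CPM, with 2.52, 2.34, 1.54 and 2.74 and 3.48, 2.15, 0.879 and 4.28 CPM. Nupr1, a stress response gene on the list, was lowest in WT6, at 61.5, 82.2, 94.0 and 35.2 CPM. Scgb1a1 was also lowest in WT6, so the genes of this list did not have 1 order.

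Other variable genes were on lists not yet described or on none. Cyp26b1, which degrades retinoic acid (chr6:84571414-84593908, minus strand), had 54.6, 8.49, 1.98 and 5.48 CPM, with WT2 at 6.43 times the next library and 27.6 times WT4. Ntrk2, the receptor for the growth factor BDNF, had 15.2, 60.9, 85.1 and 15.3 CPM, high in WT3 and WT4. Fgfr4, a fibroblast growth factor receptor, had 26.5, 6.84, 5.79 and 23.4 CPM, Slc7a10, an amino acid carrier, 32.4, 10.8, 9.53 and 23.2 CPM and Wnt2, a ligand of the alveolar niche, 9.77, 6.90, 3.81 and 10.3 CPM. These were the 3 variable genes of 14 on the alveolar fibroblast list, and they were high in WT2 and WT6, while Pdgfra of the same list was high in WT3 and WT4, at 507, 666, 689 and 505 CPM. Klf2, the flow-responsive factor of endothelium, had 119, 30.4, 60.2 and 67.9 CPM, high in WT2 and low in WT3. Disp2 and Mpp3, at 21.0, 8.68, 8.65 and 39.0 and 13.7, 4.498, 6.01 and 21.3 CPM, were high in WT2 and WT6. Rn7s2 and Rn7s6, copies of the signal recognition particle RNA, had 4.797, 3.04, 7.18 and 33.8 and 6.24, 4.43, 14.3 and 39.6 CPM, highest in WT6, while Rn7sk was lowest there. Such RNAs have many near-identical copies in the genome, and their counts are uncertain.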

How the data were processed

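Whole lung RNA of 4 wild type mouse libraries was analysed from a table of whole-number read counts per gene that the authors deposited, with no normalization. STAR, DESeq2 and the build mm10 appear in the submitters' processing notes, with no version or role. The counting program, its annotation and its handling of strand were not given in the sources used here. Overlapping, antisense and near-identical genes may therefore share reads, and their values are uncertain. Symbols of 28634 of 28828 entries matched 1 gene of GENCODE M21 (GRCm38), the source of positions, classes and exon lengths; 31 entries share a symbol and 24 have been turned into dates.

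CPM used TMM-scaled library sizes (edgeR 4.0.16 in R 4.3.3), and TPM used merged exon length. A gene was called variable where its highest library had at least 2 times the CPM of its lowest, given a mean of at least 5 CPM. There is 1 group, so no difference between groups was tested. The common biological coefficient of variation came from edgeR with an intercept only, after its filter on low counts. Samples were compared in pairs, and none agreed within sampling noise (lowest chi-square 11.3 per degree of freedom). The code of the 2-fold rule was checked on simulated counts. Tables were handled with pandas 2.3.3.

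The 51 gene lists (724 genes, 689 of them in the table) and the choice of these libraries were made with earlier results of these data known. Named genes were the 20 highest by CPM and by TPM, the 25 most variable without predicted genes, the 10 least variable above 50 CPM, the highest and the most variable of each list, Scgb3a2, and all sex-linked and clock genes, apart from some that are not reported here. Other genes given as examples were chosen after their values were seen. Alternatives were other scalings, filters and folds, DESeq2 1.42.0, and leaving out each library. Genes on a list that are missing from the table were not analysed here.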

Additional observations from a re-analysis of the deposited data

Results flagged for a closer look

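With 4 libraries, a library was set apart where its gap to the nearest other, divided by the whole range, exceeded Dixon's 95% value. Chance flags about 1 in 20 groups, and 26 of 241 groups of values met it: 6 of 51 lists, 2 of 30 gene classes and 18 of 160 named genes. The lists were drawn up with earlier results of these libraries known, and many of the named genes were chosen for their spread. Neither number can therefore be read against that rate. In 21 of the 26 the library apart was WT6, and no cause was tested.

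Among lists, the mean log2 CPM of adipocyte genes was 1.57, 1.29, 1.52 and 3.67 in WT2, WT3, WT4 and WT6, with a gap of 0.884 of the range. Mesothelium had 3.003, 3.15, 2.95 and 4.17 (gap 0.840), and adventitial fibroblasts 4.77, 4.79, 4.79 and 5.11 (0.960). WT6 was low for lung transcription factors, with 5.20, 5.16, 5.20 and 4.82 (0.880), and for smooth muscle, with 6.30, 6.27, 6.26 and 6.02 (0.851). The liver list was high in WT4, with −0.32, −0.28, 0.37 and −0.37 (0.874), on genes of few counts. Of gene classes, the share of miscellaneous small RNAs, mostly Rn7sk, was 1.22, 1.26, 1.24 and 0.862% of counts and low in WT6 (0.909), and that of collagens was 0.752, 0.769, 0.905 and 0.772% and high in WT4 (0.869).

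Among genes, WT6 lay above the others for Pck1 (gap 0.985), Bpifa1 (0.959), Thrsp (0.956), Car3 (0.938), Plin1 (0.868), Rn7s2 (0.866), Cfd (0.865), Fabp4 (0.832), Msln (0.837), Upk3b (0.874) and Elovl6 (0.899), whose values stand above. It also lay above them for Ifi27l2a, an interferon-induced gene, at 7.68, 6.40, 9.23 and 23.7 CPM (0.836), the ciliated cell gene Tmem212 at 10.01, 11.7, 10.7 and 23.5 CPM (0.878), and Hbb-bt, the minor adult beta globin, at 40.4, 47.1, 46.8 and 97.4 CPM (0.881). Hbb-bt is nearly identical to Hbb-bs, which had 770.2, 945, 1033 and 829 CPM, so reads may have been shared between them. Clec9a, a receptor of cross-presenting dendritic cells, was low in WT6, at 122, 128, 122 and 76.2 CPM (0.879). WT2 was apart for Cyp26b1 (0.876). For Gsn, an actin-severing protein, WT3 was low at 3049, 2744, 3059 and 3054 CPM (0.971), and for Dicer1, one of the steadiest genes, WT3 was high by a margin of a few CPM (0.933).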

How the results depend on the processing

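No paired analysis was possible because only 1 group was used and no groups were compared. The number of genes making up 50% of the counts, 1018, was 984.7 to 1037.3 with one library left out, 1083.75 without mitochondrial genes, 1092.25 over protein-coding genes, and 250.5 with counts per kilobase of exon, where short genes weigh more by construction. The number of genes at 1 CPM, 17739, was 17606 to 17805 with one library left out and within 1.5 times under every other setting tried, library totals, DESeq2 size factors, at least 5 CPM (12619) and at least 10 counts. The 618 variable genes became 266 to 486 with one library left out, lowest without WT6, when 262 of the 266 were among the 618. Library totals in place of TMM gave 692 (557 shared) and DESeq2 size factors 617 (589 shared). The count was 2485 with a mean of at least 1 CPM, 224 with at least 20 CPM, 1052 with no filter and 1 CPM added, 3086 with a fold of 1.5 and 111 with a fold of 3, as the looser or stricter rule implies by construction. The common biological coefficient of variation, 0.162, was 0.136 to 0.172 with one library left out and 0.117 as the median of DESeq2 gene-wise values; the cause of the latter difference was not tested. Of 69 named variable genes, 35 stayed variable without WT6, 54 to 58 without one of the other libraries, 67 with library totals and 66 with DESeq2 size factors. With library totals the mean log2 CPM of all 51 lists moved by less than 1 SD; leaving out 1 of 4 libraries cannot move a mean that far, so those values say nothing about stability. TPM by the longest transcript moved by more than 1 SD for 52 of 160 named genes. Depth limits the lists whose members lie near a few counts, such as basal and mast cells.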

Other observations

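The percentage of variable genes differed between classes of genes. Of 11568 tested protein-coding genes 4.33% were variable, against 13.8% of 160 antisense RNAs and 11.1% of 99 long intergenic RNAs. Of 37 processed pseudogenes 7 were variable, and of 11 unprocessed pseudogenes 7. None of 17 transcribed unprocessed or 9 transcribed processed pseudogenes was, but at the 4.88% of all tested genes so few could well hold none. With the strand setting of the counting not given, an antisense count can hold reads of its partner, and a pseudogene count can hold reads of its parent.

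Some genes outside the lists were set apart by 1 library, and those given here are among the largest folds to the nearest other library. In WT6 Hs3st1, which sulfates heparan, was low, with 35.4, 38.7, 41.4 and 13.3 CPM, as were Ifitm2, a membrane protein that restricts viruses, at 68.1, 75.1, 90.7 and 25.8 CPM, the ribosomal protein gene Rpl35 at 45.8, 55.9, 54.8 and 18.6 CPM and the dynein light chain Dynlrb1 at 76.2, 71.1, 87.1 and 31.5 CPM. In WT2 the phosphodiesterase Pde4b, which degrades cyclic AMP, was low at 51.2, 161, 169.6 and 144 CPM, as was the stress factor Maff at 25.5, 55.9, 67.6 and 60.3 CPM, while the apelin receptor Aplnr of endothelium was high at 46.2, 20.1, 22.7 and 23.9 CPM and Glp1r, the incretin receptor, at 94.6, 42.3, 50.3 and 50.1 CPM. No cause was tested.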
